A study of Homo sapiens with 8 samples.

Results

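The genes described here encode human potassium channels: pore-forming subunits and the auxiliary subunits that bind them. Members were all genes of the expression table whose symbol is KCN, then letters, then a number, and 70 of the 18406 genes of the table met this rule. They comprise 29 voltage-gated pore subunits, 13 inward rectifiers, 8 two-pore domain channels, 7 calcium- or sodium-activated pore subunits and 13 auxiliary subunits. RNA was sequenced from 92.1 cells, an established uveal melanoma line, in 4 groups of 2 libraries each. The groups were cells given the MEK inhibitor trametinib at 10 nM for 24 h, cells given the histone deacetylase inhibitor panobinostat at 10 nM for 24 h, cells given both drugs for 24 h (the combination), and cells given the DMSO vehicle for 24 h. All groups are the same single cell line in culture, with no host tissue. The panobinostat and combination libraries were registered under a separate run of sample numbers from the vehicle and trametinib libraries. Whether they were also prepared or sequenced apart is not stated. Comparisons between these sets carry any such difference, which cannot be told apart from the drug there. The treatment labels call panobinostat and the combination a MEK inhibitor, where the drug name was followed. The combination label states 10 nM once, and that this was the dose of each drug there is assumed. The comparisons ask how potassium channel transcripts differ after each drug alone and after both, and whether the panobinostat change differs when trametinib is present.

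Potassium channels let potassium ions leave the cell and so hold the membrane at a negative resting voltage. Voltage-gated members open when the membrane depolarizes, inward rectifiers and two-pore domain channels carry resting currents, and calcium-activated members open when intracellular calcium rises. Auxiliary subunits form no pore and change the gating, trafficking or assembly of the pore subunits they bind. Melanocytes and melanoma cells do not fire like neurons, and their channels are known for setting the membrane voltage that calcium entry and cell volume depend on.

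Values are deposited normalised signal values, which are read counts divided by a size factor for each library. Library totals, recovered as whole reads, lay between 6897784 and 16861001, which makes 1 read worth 0.602 to 1.52 units. All 7 melanocyte lineage markers examined were present, and their summed value lay between 99938 and 175142 in every library. Of the markers of other cell types, the endothelial gene CDH5 was at 0 in all libraries and the leukocyte gene PTPRC did not pass 11.7. CD68 of the leukocyte list lay between 610.4 and 1497, and of the fibroblast list COL1A1 lay between 133 and 821 and LUM between 169 and 592, and their part in the results was not tested. Trametinib replicate 2 stood apart from the rest. In that library 43 members were at 0, against 14 to 22 in the other 7 libraries. Trametinib replicate 1 also held more zeros than the libraries of the other groups, with 1.22% of all genes tested at 0 against 0.0976% to 0.285%. Of the 36 members tested, 13 (36.1%) were at 0 in trametinib replicate 2, against 6.44% of all genes tested, and at most 1 was at 0 in any other library. Changes between 2 groups that rest on a 0 in this library and not in its replicate are given with and without it.

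A member is named singly where its mean reached 20 in at least 1 group, which 37 of the 70 did. The other 33 stayed under 20 in every group, of which 13 were voltage-gated, 7 inward rectifiers, 4 two-pore domain channels, 3 calcium- or sodium-activated and 6 auxiliary. Of these, 3 were at 0 in all libraries. The 3 members nearest under this limit had highest group means of 14.0, 16.2 and 18.2. The 3 nearest over it were KCNAB1, KCNJ12 and KCNIP4, with 22.1, 24.1 and 24.3. Genes with a mean of at least 10 over the 8 libraries were tested, and 36 members were among the 13320 genes tested. Of these 36, 35 also reached 20 in a group, while KCNAB1 and KCNU1 reached 20 but were not tested. Of the 36 tested members, 11 had a vehicle mean under 10 and passed the filter through the drug-treated groups, so higher calls among them are partly set by the filter.

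Promoter sequences are shown for 3 genes with different treatment patterns in the values below: KCNJ13, high only where trametinib was given; KCNJ2, high in the combination; and KCNQ5, low in the combination. Each is the 250 bases before the gene's start in RefSeq, build GRCh38.p14, 5′ to 3′ on the gene's strand. The capitals, chosen after the sequences were seen, mark CACATGA (the complement of TCATGTG) and TATAAA in KCNJ13, and GGGCGG or its complement CCGCCC in KCNJ2 and KCNQ5.
KCNJ13, chr2:232776566-232776815, minus strand: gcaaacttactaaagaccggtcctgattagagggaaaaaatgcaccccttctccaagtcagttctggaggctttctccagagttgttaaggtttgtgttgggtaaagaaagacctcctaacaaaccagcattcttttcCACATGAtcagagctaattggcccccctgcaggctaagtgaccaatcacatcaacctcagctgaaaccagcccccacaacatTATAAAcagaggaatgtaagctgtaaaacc
KCNJ2, chr17:70169282-70169531, plus strand: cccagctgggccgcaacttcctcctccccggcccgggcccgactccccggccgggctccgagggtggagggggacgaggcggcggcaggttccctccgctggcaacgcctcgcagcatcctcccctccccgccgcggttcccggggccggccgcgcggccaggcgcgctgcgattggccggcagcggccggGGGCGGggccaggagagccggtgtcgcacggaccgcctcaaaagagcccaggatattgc
KCNQ5, chr6:72621814-72622063, plus strand: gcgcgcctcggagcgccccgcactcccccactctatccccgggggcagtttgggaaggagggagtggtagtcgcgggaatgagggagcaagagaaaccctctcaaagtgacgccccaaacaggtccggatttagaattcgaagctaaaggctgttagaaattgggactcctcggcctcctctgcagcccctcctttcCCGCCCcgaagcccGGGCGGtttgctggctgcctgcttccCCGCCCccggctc
The KCNJ13 window held 1 CG dinucleotide, the KCNJ2 window 32 and the KCNQ5 window 18, against a median of 11 over all promoters of the same length, of which 14.7% held 1 or none. Motif searches covered both strands. TCATGTG, the M-box core known as a site for the melanocyte factor MITF, was in 4.76% of the 84 windows of the 51 members with an entry and in 2.52% of the 35116 promoter windows of all genes. Among members that reached 20 in a group, it lay in windows of KCNIP2, KCNJ13 and KCNK2. The shorter CATGTG, which TCATGTG contains, was in 9.52% of member windows and 9.42% of all windows. CACGTG was in 7.14% of member windows and 6.34% of all windows, and TGANTCA in 9.52% of member windows and 6.57% of all windows. TATAAA was in 8.33% of member windows and 10.7% of all windows, and GGGCGG in 51.2% of member windows and 42.6% of all windows. A match describes these letters only.

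**Figure D1:**
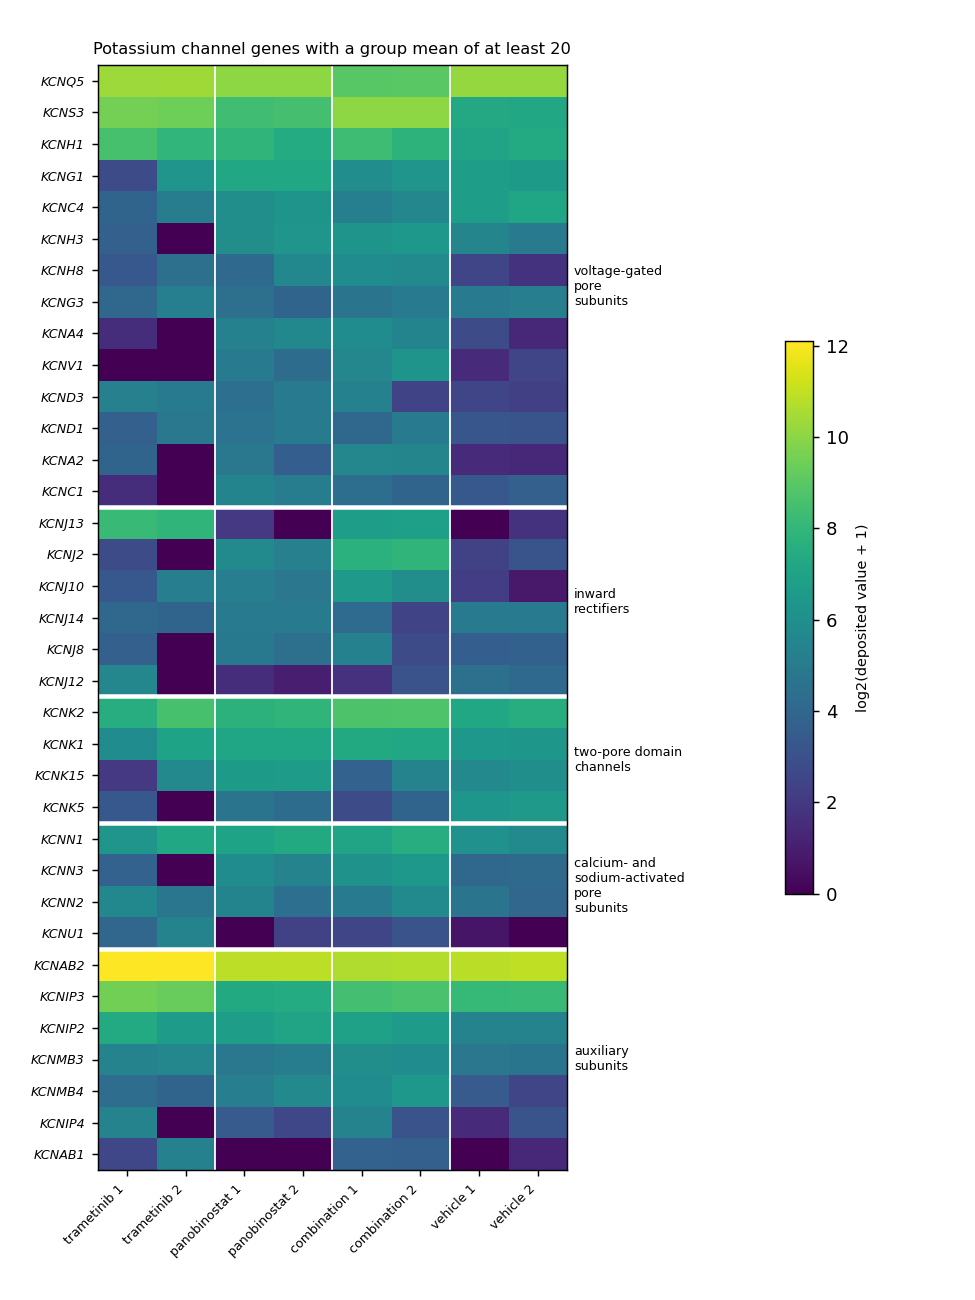
Heat map of log2(value + 1) in each of the 8 libraries (columns) for 35 of the 37 potassium channel genes with a group mean of at least 20 (rows, by subfamily). KCNAB2 and KCNQ5 are high in every library, and KCNJ13 is near 0 in the panobinostat and vehicle libraries but reaches 296 and 237 in the trametinib libraries.

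Summed per kilobase of exon over all 70 members, auxiliary subunits included, potassium channel transcripts were most abundant with trametinib. The sum over all 70 members was 1803 and 1784 units per kilobase in the trametinib libraries, 1181 and 1241 in the panobinostat libraries, 1539 and 1551 in the combination libraries, and 915 and 941 in the vehicle libraries, so no library of 1 group lay within the range of another. Auxiliary subunits, which form no pore, summed to 939 and 863 units per kilobase with trametinib and 423 and 425 with the combination. Voltage-gated pore subunits were instead highest with the combination, at 745 and 730 against 616 and 585 with trametinib. Two-pore domain channels were also highest with the combination. Inward rectifiers and calcium- or sodium-activated pore subunits overlapped between these groups. The sums over all members rest on a few genes. KCNAB2, the beta subunit that binds voltage-gated channels, made up 35.0% of the member sum in trametinib cells, 22.8% in panobinostat cells, 15.2% in combination cells and 29.6% in vehicle cells. In combination cells the highest level per kilobase was that of KCNS3, a silent subunit that forms no channel alone and modifies others, at 412 units per kilobase or 26.7% of the sum. In vehicle cells KCNQ5, a pore subunit of the M-type current, was next after KCNAB2, at 170.2 units per kilobase. Auxiliary subunits held 52.1% and 48.4% of the sum in trametinib libraries, 32.2% and 32.0% in panobinostat libraries, 27.5% and 27.4% in combination libraries, and 40.7% and 42.0% in vehicle libraries. Inward rectifiers held 6.82% and 5.11% in trametinib libraries, 3.58% and 2.62% in panobinostat libraries, 7.65% and 7.01% in combination libraries, and 2.65% and 2.70% in vehicle libraries. Exon lengths are those of GENCODE 29, and the annotation used to make the table may differ.

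Against vehicle, 9 of the 36 tested members were higher and 5 were lower with trametinib (limma, Benjamini-Hochberg adjusted p under 0.05). These are 25.0% and 13.9% of the members, beside 23.7% of all genes tested that were called higher, 27.4% that were called lower and 51.0% called in either direction. With panobinostat, 9 members were higher (25.0%, beside 15.0% of all genes) and 1 was lower (2.78%, beside 15.6%), with 30.5% of all genes called in either direction. With the combination, 16 members were higher (44.4%, beside 24.5%) and 5 were lower (13.9%, beside 25.5%), with 50.0% of all genes called in either direction. The median log2 change of the 36 members was 0.27 with trametinib, 0.74 with panobinostat and 1.15 with the combination, beside -0.07, 0.0021 and 0.03 for all genes tested. Of the higher calls, 3 of 9 with trametinib, 5 of 9 with panobinostat and 8 of 16 with the combination were of members with a vehicle mean under 10. Of the 25 tested members with a vehicle mean of 10 or more, 6 were higher with trametinib, 4 with panobinostat and 8 with the combination. No share of all genes with such a vehicle mean is given beside these counts, so they are no test of the members. The shares and medians above include members that passed the filter through the drug-treated groups, so they are no test of the members. These 3 comparisons share the vehicle libraries. All these counts moved when 1 library was left out, by the ranges given further below. In bulk RNA, a change in the number of cells that hold a transcript and a change per cell cannot be told apart.

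**Figure D2:**
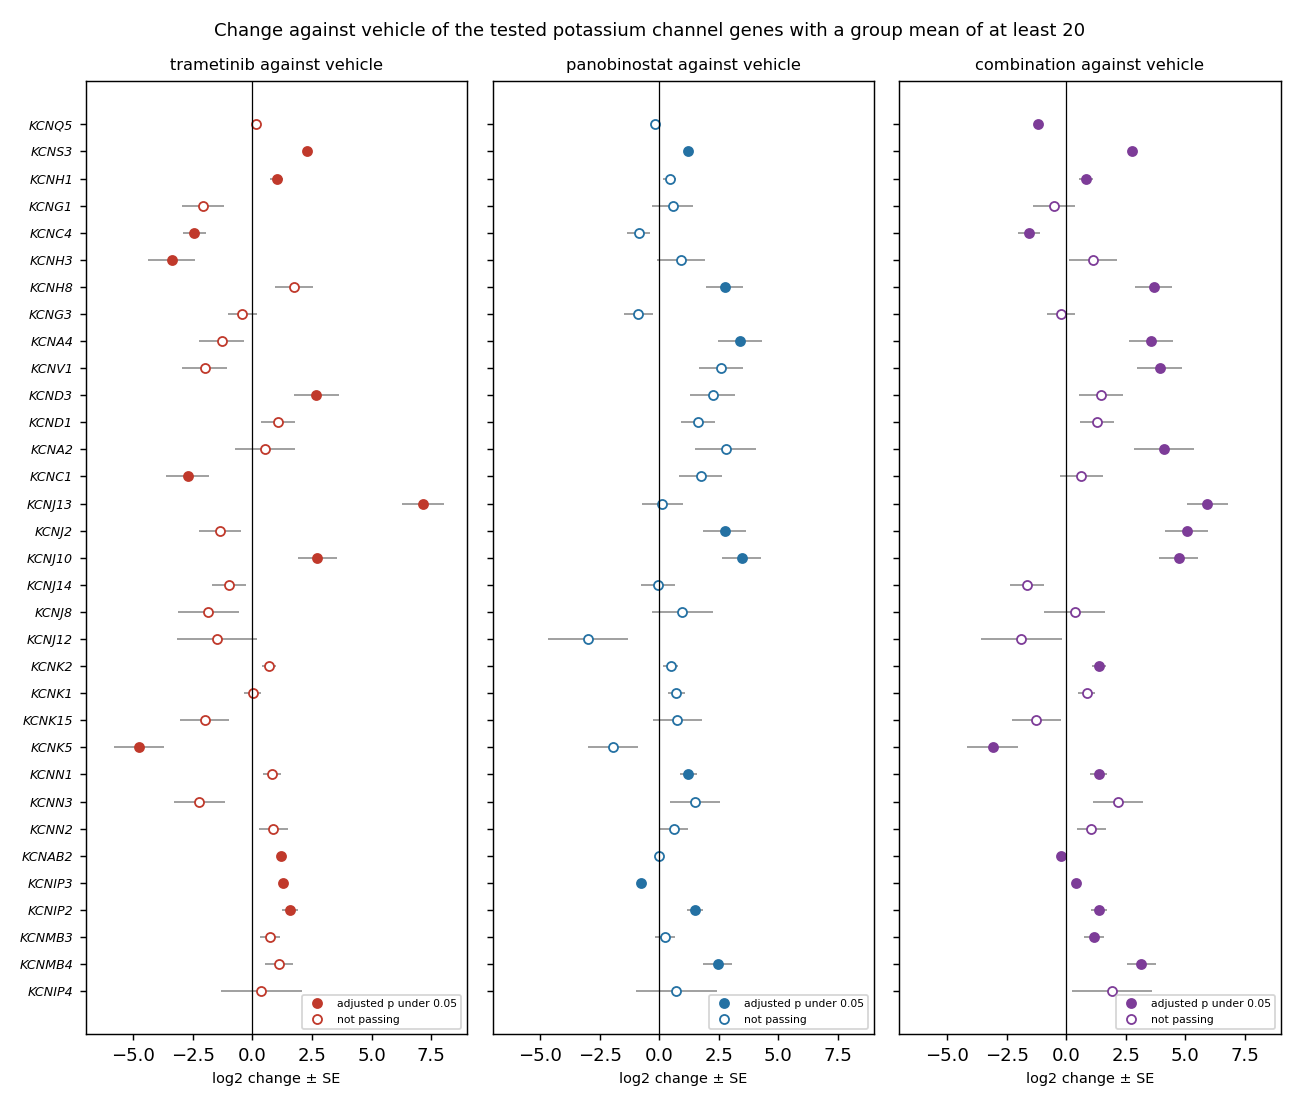
Log2 change against vehicle with its standard error for 33 of the 35 tested potassium channel genes with a group mean of at least 20, with trametinib, panobinostat and the combination. Filled points passed limma at adjusted p under 0.05. With trametinib, KCNJ13 lies farthest to the right at 7.18, and KCNK5 farthest to the left of those plotted at -4.76.

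Of the 6 inward rectifiers tested, 2 were called with trametinib, 2 with panobinostat and 3 with the combination, all higher. These are 33.3%, 33.3% and 50.0%, beside 23.7%, 15.0% and 24.5% of all genes tested called higher. All these calls were of KCNJ13, KCNJ2 and KCNJ10, whose vehicle means were under 10. These members passed the filter through the drug-treated groups, so the shares are no test of the inward rectifiers. KCNJ13 rose with trametinib and with the combination and passed no test with panobinostat alone. KCNJ13 encodes a channel of the retinal pigment epithelium, and its zebrafish counterpart shapes the pigment stripes. Its value was 296 and 237 in trametinib libraries, 3.06 and 0 in panobinostat libraries, 110.0 and 113 in combination libraries, and 0 and 2.38 in vehicle libraries. The libraries with trametinib, alone or combined, did not overlap those without it. The log2 change was 7.18 ± 0.88 (SE) with trametinib (limma adjusted p = 0.00012) and 5.93 ± 0.88 with the combination (adjusted p = 0.000401), and the combination exceeded panobinostat by 5.80 ± 0.88 (adjusted p = 0.00128). In reads, 531 with trametinib stood against 3 in vehicle, a ratio of 259.8 (95% counting interval 88.4 to 1264), and 168 with the combination stood against the same 3, a ratio of 108 (36.4 to 531). Such intervals cover counting error only, since reads that carry no molecular identifier may repeat 1 molecule. With panobinostat the change was 0.13 ± 0.88 (adjusted p = 0.928). The 3 KCNJ13 calls held with each of the 8 libraries left out in turn. Without vehicle replicate 1 and without vehicle replicate 2, the change was 6.3 and 8.05 with trametinib, and 5.06 and 6.81 with the combination. Without panobinostat replicate 1 and without panobinostat replicate 2, the combination exceeded panobinostat by 6.81 and 4.79.

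KCNJ13 lies within GIGYF2 on the opposite strand, with 33 shared exon bases. GIGYF2 had 795 and 555 in trametinib libraries, 1002 and 1042 in panobinostat libraries, 903 and 1013 in combination libraries, and 923 and 898 in vehicle libraries, so it did not show the KCNJ13 pattern. The sources used here do not say whether counting used the strand. Of 7 markers of the retinal pigment epithelium, 5 stayed under 20 in every group. RPE65, which defines that tissue, was at 0 in the trametinib, panobinostat and vehicle libraries and at 4.68 and 3.04 in the combination libraries. BEST1, a chloride channel of that tissue, had 776 and 794 in trametinib libraries, 238 and 237 in panobinostat libraries, 699 and 634 in combination libraries, and 169 and 173 in vehicle libraries. LRAT, a retinoid enzyme of that tissue, had 6.02 and 0 in trametinib libraries, 60.1 and 109 in panobinostat libraries, 66.7 and 68.5 in combination libraries, and 18.1 and 13.5 in vehicle libraries, so it was lowest with trametinib, where KCNJ13 was highest. The list's sum ranged from 792 to 794 with trametinib, 309 to 365 with panobinostat, 706 to 775 with the combination and 194 to 201 with vehicle. BEST1 made up most of that sum in every library. The part of these genes in the KCNJ13 result was not tested.

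KCNJ2, the strong inward rectifier of heart and skeletal muscle, rose with panobinostat and with the combination. It had 6.02 and 0 in trametinib libraries, 54.0 and 37.3 in panobinostat libraries, 212 and 243 in combination libraries, and 4.21 and 7.92 in vehicle libraries. The combination libraries were thus above all others. KCNJ2 changed by a log2 value of 5.06 ± 0.90 for the combination against vehicle (limma adjusted p = 0.0012) and 6.43 ± 0.90 against trametinib (adjusted p = 0.000643), or 5.02 against trametinib without its replicate 2 and 7.83 without its replicate 1. With panobinostat alone it was 2.75 ± 0.90 (adjusted p = 0.0441), a call that ended when any vehicle, panobinostat or combination library was left out. The combination differed from panobinostat alone by 2.31 ± 0.90 (adjusted p = 0.0961). KCNJ2 shares 185 exon bases with its antisense gene KCNJ2-AS1, which had 7.02 and 0 in trametinib libraries, 9.17 and 1.01 in panobinostat libraries, 18.7 and 41.1 in combination libraries, and 0 and 0.792 in vehicle libraries. Its part in the KCNJ2 values was not tested.

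KCNJ10, the potassium-buffering channel of glia, rose with each treatment. It had 9.03 and 35.2 in trametinib libraries, 34.7 and 27.2 in panobinostat libraries, 90.1 and 62.4 in combination libraries, and 3.61 and 0.792 in vehicle libraries. All treated libraries lay above both vehicle libraries. In log2, the change was 2.73 ± 0.82 with trametinib (limma adjusted p = 0.0199), 3.46 ± 0.82 with panobinostat (adjusted p = 0.0113) and 4.72 ± 0.82 with the combination (adjusted p = 0.00104). The trametinib call ended without vehicle replicate 2, and the panobinostat call ended without vehicle replicate 2 or either panobinostat library. The combination call held under all 8 omissions. With trametinib the change was 1.80 without trametinib replicate 2 and 3.65 without its replicate 1. Without vehicle replicate 1 and without vehicle replicate 2, the KCNJ10 change was 3.41 and 2.05 for trametinib, 4.15 and 2.78 for panobinostat, and 5.41 and 4.04 for the combination. KCNJ8, KCNJ12 and KCNJ14 passed no test. KCNJ12, whose reads may be shared with its near-identical copy KCNJ18, had 48.1 and 0 in trametinib libraries, 2.04 and 1.01 in panobinostat libraries, 2.34 and 7.61 in combination libraries, and 21.1 and 16.6 in vehicle libraries. KCNJ8, the pore of a channel gated by ATP, had 12 and 0 in trametinib libraries, 28.5 and 21.2 in panobinostat libraries, 38.6 and 6.09 in combination libraries, and 11.4 and 12.7 in vehicle libraries. ABCC9, the sulfonylurea receptor that partners KCNJ8, had 1232 and 1566 in trametinib libraries, 1194 and 1303 in panobinostat libraries, 1867 and 1932 in combination libraries, and 1059 and 987 in vehicle libraries. KCNJ14, which shares 350 exon bases with GRWD1 on the same strand, was between 4.56 and 30.9 in all libraries.

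**Figure D3:**
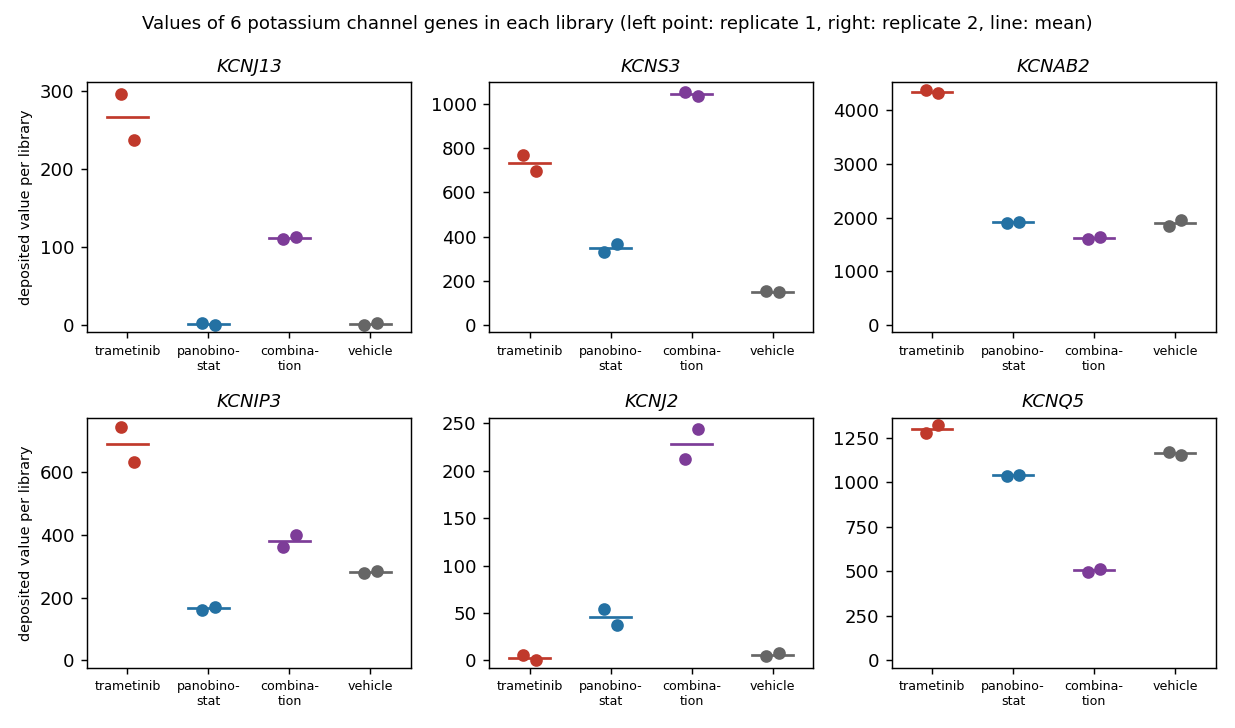
Values in each library of 6 potassium channel genes, with 1 panel per gene, groups on the horizontal axis and the normalised value on the vertical axis. Points are libraries and lines are group means. KCNS3 is highest in the combination libraries at 1051 and 1036, where KCNQ5 is lowest at 499 and 513.

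Of the 17 voltage-gated members tested, 4 rose and 4 fell with trametinib, 4 rose and none fell with panobinostat, and 7 rose and 3 fell with the combination. With trametinib these are 23.5% in each direction, beside 23.7% of all genes tested higher and 27.4% lower. With panobinostat 23.5% rose, beside 15.0% of all genes, and with the combination 41.2% rose and 17.6% fell, beside 24.5% and 25.5%. The higher calls include KCNA2, KCNA4, KCND3, KCNH8 and KCNV1, whose vehicle means were under 10, so the higher shares are partly set by the filter. KCNS3 rose with all 3 treatments. It had 770.2 and 698 in trametinib libraries, 332 and 366 in panobinostat libraries, 1051 and 1036 in combination libraries, and 154 and 148 in vehicle libraries. The 4 groups did not overlap, and within each group the libraries lay close together. Against vehicle, the log2 change was 2.27 ± 0.12 with trametinib (limma adjusted p = 5.86e-07), 1.20 ± 0.12 with panobinostat (adjusted p = 0.000135) and 2.78 ± 0.12 with the combination (adjusted p = 2.23e-07). The combination exceeded panobinostat by 1.58 ± 0.12 (adjusted p = 2.09e-05) and trametinib by 0.51 ± 0.12 (adjusted p = 0.0113), and the difference from trametinib lost its call when either combination library was left out.

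KCNQ5 fell in combination cells and passed no test with either drug alone. It had 1278 and 1322 in trametinib libraries, 1036 and 1044 in panobinostat libraries, 499 and 513 in combination libraries, and 1174 and 1156 in vehicle libraries. The log2 change was -1.20 ± 0.08 for the combination against vehicle (limma adjusted p = 3.02e-06), -1.36 ± 0.08 against trametinib (adjusted p = 5.1e-06) and -1.04 ± 0.08 against panobinostat (adjusted p = 2.4e-05). With trametinib alone it was 0.16 ± 0.08 (adjusted p = 0.135) and with panobinostat alone -0.16 ± 0.08 (adjusted p = 0.166). The 3 KCNQ5 calls for the combination held under all 8 omissions.

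KCNC4 and KCNC1 belong to a group of subunits that form fast channels of rapidly firing neurons. KCNC4 had 14.0 and 34.2 in trametinib libraries, 61.2 and 74.6 in panobinostat libraries, 36.3 and 47.2 in combination libraries, and 108 and 141 in vehicle libraries. It fell by 2.44 ± 0.47 on the log2 scale with trametinib (limma adjusted p = 0.00211), with changes of -3.05 without trametinib replicate 2 and -1.82 without its replicate 1. It fell by 1.56 ± 0.47 with the combination (adjusted p = 0.0215), a call that ended when any vehicle or combination library was left out. KCNC1 had 2.01 and 0 in trametinib libraries, 42.8 and 32.3 in panobinostat libraries, 19.9 and 13.7 in combination libraries, and 9.03 and 11.9 in vehicle libraries. It was lower with trametinib than with vehicle (log2 -2.71 ± 0.90, adjusted p = 0.0307), with 2 reads against 30. It was higher in the combination than with trametinib (log2 3.34 ± 0.90, adjusted p = 0.0194). Without trametinib replicate 2 these were -1.92 and 2.54, and without its replicate 1 they were -3.51 and 4.13, and both calls ended when any vehicle or panobinostat library was left out. The difference from trametinib also lost its call without either combination library.

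KCNH1, the ether-a-go-go channel found in many tumours, had 378 and 245 in trametinib libraries, 238 and 173 in panobinostat libraries, 322 and 222 in combination libraries, and 135 and 166 in vehicle libraries. It rose by 1.02 ± 0.28 on the log2 scale with trametinib (limma adjusted p = 0.0131) and by 0.83 ± 0.28 with the combination (adjusted p = 0.0324). The trametinib call ended without vehicle replicate 1, and the combination call without either vehicle library or combination replicate 1. KCNH1 shares up to 3618 exon bases with other annotated genes, so its reads are uncertain. KCNH8, a slowly gating relative, had 9.03 and 21.1 in trametinib libraries, 16.3 and 49.4 in panobinostat libraries, 58.5 and 53.2 in combination libraries, and 4.81 and 2.38 in vehicle libraries. Its log2 change was 3.68 ± 0.78 with the combination (adjusted p = 0.00343), which held under all 8 omissions, and 2.74 ± 0.78 with panobinostat (adjusted p = 0.026), which held under 3. Without panobinostat replicate 1 and without panobinostat replicate 2, that change was 3.51 and 1.97. KCNH3, a brain channel of the same family, had 12 and 0 in trametinib libraries, 62.2 and 78.6 in panobinostat libraries, 76.1 and 86.7 in combination libraries, and 43.9 and 30.9 in vehicle libraries. With trametinib its log2 change was -3.39 ± 0.99 (adjusted p = 0.018), which was -1.54 without trametinib replicate 2 and -5.24 without its replicate 1, and lost its call without either vehicle library. Against trametinib, the combination was higher by 4.51 ± 0.99 (adjusted p = 0.00759), or 2.66 without trametinib replicate 2 and 6.36 without its replicate 1, and this call ended without either combination library.

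KCNA4, KCNV1 and KCNA2 were under 10 in both vehicle libraries and rose with the combination. KCNA4, an A-type channel subunit, had 2.01 and 0 in trametinib libraries, 38.7 and 48.4 in panobinostat libraries, 57.4 and 42.6 in combination libraries, and 6.02 and 1.58 in vehicle libraries. Its log2 change was 3.38 ± 0.93 with panobinostat (limma adjusted p = 0.0226) and 3.57 ± 0.93 with the combination (adjusted p = 0.0105), with calls that ended under 5 and 3 of the 8 omissions. Without vehicle replicate 1 and without vehicle replicate 2, it was 4.10 and 2.66 with panobinostat, and 4.29 and 2.85 with the combination. The combination exceeded trametinib by 4.86 ± 0.93 (adjusted p = 0.00379), with 77 reads against 2, or by 4.07 without trametinib replicate 2 and 5.66 without its replicate 1. KCNV1, a silent subunit like KCNS3, had 0 in both trametinib libraries, 29.6 and 18.1 in panobinostat libraries, 48.0 and 76.1 in combination libraries, and 1.81 and 4.75 in vehicle libraries. The combination was higher than vehicle (log2 3.94 ± 0.94, adjusted p = 0.00662), a call that ended without vehicle replicate 1 or combination replicate 2. It was at least 20.6-fold higher than trametinib against a floor of 3 reads per library (adjusted p = 0.00133). KCNA2, a delayed rectifier of axons, had 14.0 and 0 in trametinib libraries, 27.5 and 11.1 in panobinostat libraries, 46.8 and 44.1 in combination libraries, and 1.81 and 1.58 in vehicle libraries. Its combination call (log2 4.11 ± 1.3, adjusted p = 0.0227) ended when any vehicle or combination library was left out.

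KCND3, an A-type subunit of the heart, had 37.1 and 30.1 in trametinib libraries, 20.4 and 29.2 in panobinostat libraries, 38.6 and 4.56 in combination libraries, and 4.81 and 3.96 in vehicle libraries. Its trametinib call (log2 2.68 ± 0.94, limma adjusted p = 0.0378) ended when any vehicle or panobinostat library was left out. The silent subunits KCNG1 and KCNG3 and the A-type subunit KCND1 passed no test. KCNG1 had 6.02 and 79.4 in trametinib libraries, 151 and 145 in panobinostat libraries, 60.9 and 79.1 in combination libraries, and 107 and 94.2 in vehicle libraries.

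Of the 4 two-pore domain channels tested, KCNK5 was the only one called with trametinib, and KCNK2 and KCNK5 were called with the combination. These are 25.0% and 50.0% of the 4, beside 51.0% and 50.0% of all genes tested called in either direction. KCNK5, an acid-sensitive leak channel, had 9.03 and 0 in trametinib libraries, 24.5 and 18.1 in panobinostat libraries, 5.85 and 13.7 in combination libraries, and 80.0 and 89.5 in vehicle libraries. Every treated library lay under both vehicle libraries. Its log2 change was -4.76 ± 1.1 with trametinib (limma adjusted p = 0.0044), or -3.09 without trametinib replicate 2 and -6.42 without its replicate 1. It was -3.09 ± 1.1 with the combination (adjusted p = 0.0345), a call that ended when any vehicle, panobinostat or combination library was left out. KCNK2, a leak channel opened by membrane stretch, had 185 and 386 in trametinib libraries, 219 and 240.0 in panobinostat libraries, 421 and 441 in combination libraries, and 148 and 184 in vehicle libraries. It rose by 1.38 ± 0.30 on the log2 scale with the combination (adjusted p = 0.00373), which held under all 8 omissions. KCNK1, a weak leak channel, and KCNK15 passed no test; KCNK15 shares 506 exon bases with RIMS4.

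Of the 3 calcium-activated pore subunits tested, KCNN1 rose with panobinostat and with the combination. This is 33.3% of the 3, beside 15.0% of all genes tested called higher with panobinostat and 24.5% with the combination. The KCNN subunits form small-conductance channels that calmodulin opens. KCNN1 had 77.2 and 149.7 in trametinib libraries, 126 and 161 in panobinostat libraries, 135 and 184 in combination libraries, and 69.2 and 53.0 in vehicle libraries. Its log2 change was 1.22 ± 0.36 with panobinostat (limma adjusted p = 0.0297) and 1.36 ± 0.36 with the combination (adjusted p = 0.0111). The first call ended when any vehicle, panobinostat or combination library was left out, and the second without vehicle replicate 2 or combination replicate 2. KCNN3 had 13 and 0 in trametinib libraries, 57.1 and 41.3 in panobinostat libraries, 71.4 and 85.2 in combination libraries, and 15.6 and 17.4 in vehicle libraries. It was higher in the combination than with trametinib (log2 4.40 ± 1.1, adjusted p = 0.0112), or by 2.49 without trametinib replicate 2 and 6.3 without its replicate 1, and this call ended without either combination library. KCNN2 passed no test. KCNU1, a sperm channel that reached 20 with trametinib but was not tested, had 15.0 and 42.2 in trametinib libraries, 0 and 4.03 in panobinostat libraries, 4.68 and 7.61 in combination libraries, and 0.602 and 0 in vehicle libraries, or 57 reads with trametinib against 1 with vehicle.

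Of the 6 auxiliary subunits tested, 3 rose and none fell with trametinib, 2 rose and 1 fell with panobinostat, and 4 rose and 1 fell with the combination. In either direction 50.0% were called with trametinib, 50.0% with panobinostat and 83.3% with the combination, beside 51.0%, 30.5% and 50.0% of all genes tested. The panobinostat and combination shares include KCNMB4, whose vehicle mean was under 10, so they are partly set by the filter. KCNAB2 had 4377 and 4312 in trametinib libraries, 1897 and 1919.9 in panobinostat libraries, 1605 and 1643 in combination libraries, and 1838 and 1963 in vehicle libraries. Both trametinib libraries lay above all others. KCNAB2 shares 111 exon bases with NPHP4 on the opposite strand. KCNAB2 changed by a log2 value of 1.19 ± 0.06 with trametinib (limma adjusted p = 6.36e-07), 0.01 ± 0.06 with panobinostat (adjusted p = 0.953) and -0.23 ± 0.06 with the combination (adjusted p = 0.0158). The combination was under trametinib by -1.42 ± 0.06 (adjusted p = 9.4e-07) and under panobinostat by -0.23 ± 0.06 (adjusted p = 0.0275). The calls with trametinib and for the combination against trametinib held under all 8 omissions. The small difference from vehicle lost its call without vehicle replicate 2 or combination replicate 1, and that from panobinostat without any vehicle, panobinostat or combination library.

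KCNIP3, a calcium-binding partner of A-type channels that also acts as the transcription repressor DREAM, moved in opposite directions with the single drugs. It had 744 and 633 in trametinib libraries, 161 and 170.4 in panobinostat libraries, 362 and 399 in combination libraries, and 277 and 286 in vehicle libraries, and no groups overlapped. The log2 change was 1.28 ± 0.15 with trametinib (limma adjusted p = 7.47e-05), -0.76 ± 0.15 with panobinostat (adjusted p = 0.0041) and 0.43 ± 0.15 with the combination (adjusted p = 0.0342). The combination was lower than trametinib by -0.85 ± 0.15 (adjusted p = 0.00205) and higher than panobinostat by 1.19 ± 0.15 (adjusted p = 0.000364). Of the 5 KCNIP3 calls, that for the combination against vehicle ended when any vehicle or combination library was left out, and the others held under all 8 omissions. KCNIP2, another such partner, had 165 and 97.5 in trametinib libraries, 108 and 132 in panobinostat libraries, 121 and 102 in combination libraries, and 42.1 and 42.0 in vehicle libraries. It rose with all 3 treatments, by 1.57 ± 0.33 (adjusted p = 0.00319) with trametinib, 1.48 ± 0.33 (adjusted p = 0.00824) with panobinostat and 1.38 ± 0.33 (adjusted p = 0.00647) with the combination, all log2. The panobinostat call ended without either vehicle library or panobinostat replicate 2, and the combination call without combination replicate 1. KCNIP2 shares 291 exon bases with its antisense gene, which was not analysed here. KCNIP4 passed no test.

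KCNMB4 and KCNMB3, beta subunits of the large-conductance calcium-activated channel, rose with the combination. KCNMB4 had 19.1 and 14.1 in trametinib libraries, 35.7 and 51.4 in panobinostat libraries, 58.5 and 85.2 in combination libraries, and 10.2 and 4.75 in vehicle libraries. Its log2 change was 3.16 ± 0.60 with the combination (limma adjusted p = 0.00178), which held under all 8 omissions. It was 2.45 ± 0.60 with panobinostat (adjusted p = 0.0132), a call that ended without vehicle replicate 2 or either panobinostat library. The combination exceeded trametinib by 2.04 ± 0.60 (adjusted p = 0.0274), a call that ended when any panobinostat or combination library was left out. KCNMB3 had 41.1 and 47.2 in trametinib libraries, 27.5 and 34.3 in panobinostat libraries, 62.0 and 57.8 in combination libraries, and 26.5 and 25.3 in vehicle libraries. Its combination call (log2 1.18 ± 0.43, adjusted p = 0.0443) ended when any vehicle, panobinostat or combination library was left out. KCNMB3 shares 3403 exon bases with PIK3CA on the opposite strand, so its reads are uncertain, and PIK3CA had 266 and 303 in combination libraries against 233 and 212 in vehicle libraries. KCNAB1, a relative of KCNAB2 that was not tested, had 5.01 and 39.2 in trametinib libraries, 0 in both panobinostat libraries, 12.9 and 12.2 in combination libraries, and 0 and 1.58 in vehicle libraries.

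Setting the combination against each single drug, 10 of the 36 tested members were higher than with trametinib (27.8%, beside 17.6% of all genes tested) and 3 were lower (8.33%, beside 15.2%), with 32.8% of all genes called in either direction. Against panobinostat, 3 were higher (8.33%, beside 10.9%) and 2 were lower (5.56%, beside 13.1%), with 24.0% of all genes called in either direction. Of the higher calls, 4 of 10 and 1 of 3 were of members with a vehicle mean under 10. Trametinib means were under 10 for KCNA4, KCNC1, KCNH3, KCNJ2, KCNN3 and KCNV1, as was the panobinostat mean of KCNJ13. Such members passed the filter through the groups where they were higher, so these shares are no test of the members. The counts against each single drug also moved when 1 library was left out, by the ranges given further below. The 3 lower than with trametinib were KCNIP3, KCNQ5 and KCNAB2. The 3 higher than with panobinostat were KCNJ13, KCNS3 and KCNIP3, and the 2 lower were KCNQ5 and KCNAB2.

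The change with panobinostat differed by the presence of trametinib for 5 members. This interaction is the log2 change of the combination against trametinib minus that of panobinostat against vehicle, and 1 member was above 0 (2.78%, beside 10.2% of all genes tested) and 4 were under 0 (11.1%, beside 9.04%), with 19.3% of all genes called in either direction. KCNAB2 changed by -1.42 (log2) with panobinostat when trametinib was present and by 0.01 when it was not, an interaction of -1.43 ± 0.09 (limma adjusted p = 1.84e-05). For KCNQ5 these changes were -1.36 and -0.16, and the interaction was -1.20 ± 0.12 (adjusted p = 0.000155). The KCNAB2 and KCNQ5 interactions held under all 8 omissions. KCNS3 rose by 0.51 with trametinib present and by 1.20 without it, an interaction of -0.69 ± 0.17 (adjusted p = 0.0211). KCNIP2 changed by -0.19 with trametinib present and by 1.48 without it, an interaction of -1.68 ± 0.47 (adjusted p = 0.0333). The KCNIP2 interaction lost its call when any vehicle, panobinostat or combination library was left out, and that of KCNS3 without any of these but panobinostat replicate 1. The interaction counts likewise moved when 1 library was left out, by the ranges given further below.

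**Figure D4:**
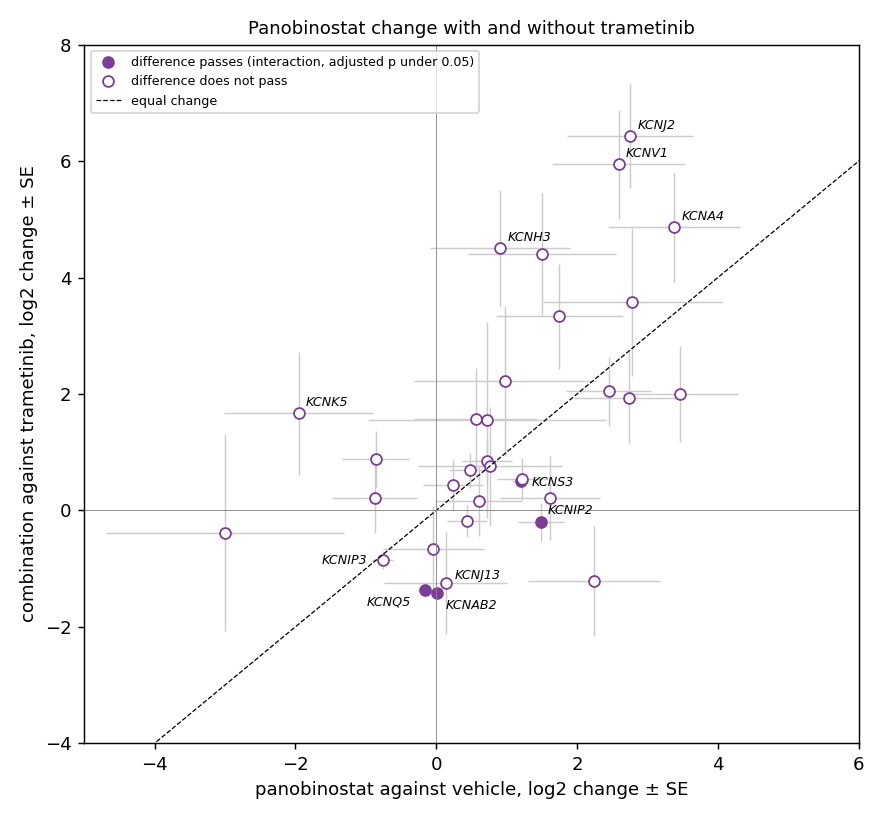
Log2 change of the combination against trametinib (vertical axis) and of panobinostat against vehicle (horizontal axis), each with its standard error, for 33 tested potassium channel genes with a group mean of at least 20. The line marks equal changes. KCNJ2 lies above it at 2.75 horizontally and 6.43 vertically, an open point, and KCNQ5 below it at -0.16 and -1.36, a filled point.

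Genes that act with potassium channels were listed by function. Of all genes tested, 51.0% were called in either direction with trametinib, 30.5% with panobinostat and 50.0% with the combination, and the short lists given next were not tested against these shares. The sodium-potassium pump, which builds the potassium gradient, had 7 subunits tested, of which 2 rose and 2 fell with trametinib, 4 rose with panobinostat, and 4 rose and 2 fell with the combination. ATP1B1, 1 of its beta subunits, had 1354 and 1816 in trametinib libraries, 719 and 671 in panobinostat libraries, 2941 and 2916 in combination libraries, and 285 and 261 in vehicle libraries. The log2 change was 2.52 ± 0.13 with trametinib (limma adjusted p = 5.01e-07), 1.34 ± 0.13 with panobinostat (adjusted p = 0.000111) and 3.42 ± 0.13 with the combination (adjusted p = 1.38e-07). Another beta subunit was called lower with trametinib and with the combination, so ATP1B1 does not stand for the whole pump. TMEM38B, a potassium-permeable channel of the endoplasmic reticulum, had 114 and 66.3 in trametinib libraries, 396 and 379 in panobinostat libraries, 364 and 345 in combination libraries, and 383 and 349.9 in vehicle libraries. It fell by 2.06 ± 0.24 on the log2 scale with trametinib (adjusted p = 7.94e-05). The combination exceeded trametinib by 2.01 ± 0.24 (adjusted p = 0.000241) and its change against vehicle was -0.05 ± 0.24 (adjusted p = 0.89). Of 7 cation-chloride cotransporters tested, 3 rose and 3 fell with trametinib, 1 rose with panobinostat, and 3 rose and 1 fell with the combination. SLC12A7, which exports potassium with chloride, had 1091 and 1017 in trametinib libraries against 527 and 534 in vehicle libraries, a log2 change of 0.99 ± 0.11 (adjusted p = 6.5e-05). Of the 4 HCN cation channels tested, 1 rose with trametinib, 3 with panobinostat and 2 with the combination. These are 25.0%, 75.0% and 50.0%, beside 23.7%, 15.0% and 24.5% of all genes tested called higher. The panobinostat and combination counts include HCN4, whose vehicle mean was under 10. It passed the filter through the drug-treated groups, so these shares are no test of the list. Of the 5 further channel partners tested, 2 rose and 3 fell with trametinib, none was called with panobinostat, and 2 rose with the combination.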

How the data were processed

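RNA libraries were made from total RNA of 92.1 cells with a NuGEN Ovation kit for fixed-tissue RNA, per the labels' protocols. Per the submitters' processing notes, the authors used DESeq2 (version not given), Cufflinks 2.2.1 and TopHat2 2.0.13. These notes name build hs37d5 for 4 libraries and none for the other 4. The deposited values are normalised signal: within each library all values were whole multiples of 1 step, so dividing by it gave whole reads for 100% of values within a tolerance of 1e-06. For 3 libraries the step lies close to 1, so that normalised values and reads are close there.

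Changes were tested with limma 3.58.1 (R 4.3.3) using an intensity trend on log2(value + 1), which understates the change of low genes. All 8 libraries entered 1 fit without a block, with 4 residual degrees of freedom and 5.32 prior ones. Tests covered the 13320 genes whose mean value reached 10, with Benjamini-Hochberg adjustment over all of them within a comparison. With 2 libraries against 2, the smallest two-sided p of an exact permutation test is 0.333. No source says that replicates were separate cultures, so each p measures spread among libraries that may be technical. Alternatives were a pseudocount of 5, no filter, TMM scaling, edgeR 4.0.16 (quasi-likelihood) and DESeq2 1.42.0 on the recovered reads, a replicate block, a fit to the compared groups only, and each library left out in turn.

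Counting intervals are exact conditional intervals at 95% (SciPy 1.17.1). Levels per kilobase used merged exon lengths of GENCODE 29 (GRCh38), and promoters came from RefSeq, where 28 of the 37 genes named singly had an entry. Members with a group mean of 20 or more were named. Partner genes given with their tests came from the up to 4 per comparison with the smallest adjusted p, and not all of these are described. Members and lists were chosen with earlier results of these data known. Single values of 3 genes that met these rules are not reported here, and counts include them.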

Additional observations from a re-analysis of the deposited data

Results flagged for a closer look

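For the 4 potassium channel genes given here, the change with panobinostat differed between cells with and without trametinib by a test of the interaction (limma, Benjamini-Hochberg adjusted over all genes tested). The interaction, in log2, was -1.43 for KCNAB2 (adjusted p = 1.84e-05), -1.20 for KCNQ5 (adjusted p = 0.000155), -0.69 for KCNS3 (adjusted p = 0.0211) and -1.68 for KCNIP2 (adjusted p = 0.0333). The calls of KCNAB2 and KCNQ5 held with each of the 8 libraries left out in turn, and those of KCNS3 and KCNIP2 did not.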

How the results depend on the processing

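Of the 68 calls of single members, none changed direction under any alternative. TMM scaling and DESeq2 kept all 68, edgeR 67, a pseudocount of 5 kept 66, the replicate block 65, no filter 63, and a fit to the compared groups only 54 of 63 (the interaction has no such fit). KCNMB3 in the combination was the call edgeR lost (adjusted p = 0.072). With 1 library left out, 45 and 40 calls held without vehicle replicates 1 and 2, 68 and 68 without trametinib replicates 1 and 2, 52 and 49 without panobinostat replicates 1 and 2, and 44 and 46 without combination replicates 1 and 2, and 33 held under all 8. The library left in such an arm was assumed to vary like the other groups. Of 148 pairs not called, 58 and 52 were called without trametinib replicates 1 and 2.

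Counts of members moved by over 1.5 times as follows. With the compared groups only, 3 were lower with trametinib, 20 higher and 5 lower with panobinostat, 8 lower with the combination, 5 higher in the combination than with trametinib, and 8 higher and 4 lower than with panobinostat. A pseudocount of 5 or DESeq2 each gave 2 lower with panobinostat, and a pseudocount of 5, edgeR or DESeq2 each gave 5 higher in the combination than with panobinostat. The interaction was above 0 for 2 members with a pseudocount of 5 and for 5 with DESeq2. With each library left out in turn, counts ran from 6 to 14 higher and 3 to 12 lower with trametinib, 2 to 18 and 1 to 5 with panobinostat, 10 to 22 and 1 to 8 with the combination, 4 to 18 and 3 to 4 for the combination against trametinib, 3 to 6 and 1 to 5 against panobinostat, and 0 to 12 and 2 to 9 for the interaction. A trametinib library enters comparisons that do not involve the trametinib group only through the shared estimate of spread. Leaving it out thus moved the calls there but not the log2 changes. KCNA2, for example, kept a log2 change of 2.79 for panobinostat against vehicle without trametinib replicate 2. Shares of all genes tested under these alternatives are not given here. The counts thus show only how far calls moved and are no result about the members. Causes of the other moves were not tested.

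The correlation of deviations between same-numbered libraries ran from -0.0235 to 0.0218, so no large shared effect of replicate number was seen. Such values cannot show whether same-numbered libraries shared a culture or day. With the replicate block, 10 members were higher and 5 lower with trametinib, 8 and 1 with panobinostat, 15 and 4 with the combination, 11 and 3 for the combination against trametinib, 4 and 2 against panobinostat, and 1 and 4 for the interaction. The block ended the calls of KCNJ2 with panobinostat (adjusted p = 0.0508), of KCNMB3 with the combination (adjusted p = 0.0631) and of 1 gene not reported here. For members with few reads, a single 0 in trametinib replicate 2 moves the log2 change. That library held 10528784 reads and 5362 genes at 0, against 6897784 reads and 2601 genes at 0 in combination replicate 2. The cause of these zeros was not tested.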

Other observations

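Among the melanocyte lineage markers, DCT, a pigment enzyme named here after its values were seen, had 1984 and 1912 in trametinib libraries, 5.10 and 10.1 in panobinostat libraries, 258 and 236 in combination libraries, and 14.4 and 4.75 in vehicle libraries. PMEL and TYRP1 of that list were likewise highest with trametinib and next with the combination, with smaller differences. PMEL had 50705 and 53493 in trametinib libraries, 28666 and 30566 in panobinostat libraries, 42296 and 45795 in combination libraries, and 37252 and 36220 in vehicle libraries. TYR, SOX10, MLANA and MITF did not have this order. MLANA had 7829.9 and 8044 in trametinib libraries, 5209 and 5000.3 in panobinostat libraries, 4466 and 4155 in combination libraries, and 5275 and 5464 in vehicle libraries. MITF had 8362 and 8592 in trametinib libraries, 5343 and 5099 in panobinostat libraries, 4184 and 4336 in combination libraries, and 4158 and 4070.1 in vehicle libraries. HCN4, a pacemaker cation channel that was likewise singled out after its values were seen, had 6.02 and 0 in trametinib libraries, 26.5 and 29.2 in panobinostat libraries, 66.7 and 59.3 in combination libraries, and 1.20 and 0.792 in vehicle libraries, and is given as values only.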
